A study of Mus musculus with 6 samples.

Results

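The genes described here are 48 genes of the mammalian cell cycle and of DNA replication, taken from the 22869 gene symbols of the deposited count table by an exact match of symbol. Each gene was represented by the transcript row with the highest summed count. All 48 were found and all 48 passed the filter on low counts, with 6 to 5317 reads in a library. They were read in 4 groups: 10 genes of G1 (cyclins D and E, their kinases and 2 E2F factors), 14 of S phase (licensing, the MCM helicase and nucleotide supply), 21 of G2 and mitosis, and 3 kinase inhibitor genes. Genes with a Kif symbol were not included, although Cenpe, a kinetochore motor among the 48, is itself of the kinesin family. RNA had been sequenced from 6 libraries of mouse embryos of mixed strain at E14.5. The first group held Ret+ RA mechanoreceptors, a class of touch neurons, of embryos with the genotype Ret-CreERT2; Rosa26-Tdtomato, whose mothers were given 4-hydroxytamoxifen by gavage. They were sorted by fluorescence from dissociated dorsal root ganglia (3 libraries, replicates 2, 8 and 9). They were set against roof plate-derived midline cells of the dorsal column, cut from frozen, hematoxylin-stained wild-type spinal cords by laser capture microdissection (3 libraries, replicates 2, 3 and 5). The labels did not state tamoxifen treatment for the wild-type embryos. The Cre is driven by Ret, which other cells can also express, and a captured region can hold any cell within the cut outline. Cell type coincided with tissue, isolation method, genotype and stated 4-hydroxytamoxifen treatment, and these cannot be told apart. Whether the libraries came from separate embryos or litters was not stated, so p-values measure how these samples vary, in part perhaps technically. In such bulk libraries, fewer cells of a type and less RNA per cell cannot be told apart either.

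Proliferating cells express cell cycle genes in waves. Cyclin D with CDK4 or CDK6, and then cyclin E with CDK2, inactivate the RB pocket proteins, which frees E2F factors to switch on genes for origin licensing, replication forks and nucleotide supply. Cyclin A and cyclin B with CDK1, together with FOXM1 and B-MYB, later drive the genes of chromosome condensation, spindle assembly and cytokinesis. CIP/KIP and INK4 inhibitors hold the kinases in check in cells that leave the cycle. Sensory neurons of the dorsal root ganglion are postmitotic once they have differentiated, whereas glial and neural progenitors of the ganglion and spinal cord still divide in the embryo.

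Total counts over all transcript rows were 12031898 to 13801474 in the mechanoreceptor libraries and 5599811 to 8081153 in the midline libraries. Levels are given as CPM (counts scaled to library size by the TMM method and the cpm function of edgeR), always in the order of mechanoreceptor libraries 2, 8 and 9 and of midline libraries 2, 3 and 5. A floor of 3 counts was worth 0.346 to 0.669 CPM. Markers matched the labels in outline: 10 of 12 sensory neuron markers were called higher in mechanoreceptors, and all 9 tested roof plate markers (Wnt1 and Gdf7 at 0 counts in each mechanoreceptor library) were called higher in the midline, along with 10 of 11 radial glia markers. Markers of other cell types were also called higher in the midline. These were all 8 tested of skeletal muscle, 11 of 12 of endothelium and pericytes and 7 of 9 tested of fibroblasts. They also included 6 of 9 tested erythroid, 7 of 9 tested dorsal horn neuron and 5 of 6 oligodendrocyte precursor markers. The shares of all genes tested were 18.9% toward the midline and 18.8% toward mechanoreceptors. Midline library 2 stood apart. Its summed skeletal muscle markers reached 14428 CPM, against 169 and 1443 CPM in midline libraries 3 and 5, and its fibroblast markers 7299.7 CPM, against 651 and 1238 CPM. Its roof plate markers summed to 317 CPM, below the 945 and 1262 CPM of the other midline libraries. The results below are therefore given with and without it.

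Cell cycle and replication genes were lower in mechanoreceptors than in the midline in every phase of the cycle. With all 6 libraries, 42 of the 48 genes were called higher in the midline and 0 higher in mechanoreceptors (quasi-likelihood F test of edgeR, adjusted p under 0.05 over all 15314 genes tested). Among all genes tested, 18.9% were called higher in the midline and 18.8% higher in mechanoreceptors. The median log2 fold change of the 48, as mechanoreceptor minus midline, was -2.23, while that of all genes tested was -0.05. For 47 of the 48 the sign was negative, and Cdkn1a was the exception. The 40 called genes with a change of at least 2-fold included 29 past 4-fold. Groups did not overlap, with the midline higher, for 42 genes, against 27.6% of all genes. In the other direction, 0 of the 48 and 27.3% of all genes did not overlap. The 42 are not the 42 called: Cdk4 and Ccne1 did not overlap and were not called, while Cdk6 and E2f2 were called and overlapped. Without midline library 2, the counts were 30 genes higher in the midline and 1, Cdkn1a, higher in mechanoreceptors, and the median was -1.49. In that fit 15.2% of all genes were called higher in the midline and 17.8% higher in mechanoreceptors. Leaving out a mechanoreceptor library also lowered the count, to 29 without library 2, 28 without library 8 and 30 without library 9, in fits where 12.2%, 11.9% and 12.5% of all genes were called higher in the midline. The counts were 44 without midline library 3 and 38 without midline library 5, where the shares of all genes were 18.5% and 14.1%. Other tests and scalings of the 6 libraries gave 44 genes with DESeq2, 45 with upper-quartile scaling, 38 with limma-voom and 34 with limma on the deposited log2 values, beside 22.9%, 24%, 18.7% and 16.2% of all genes. With no filter on low counts there were 39 genes and 12.7% of all genes, and with a stricter filter 41 of the 45 genes kept and 21%. The row choice and the removal of marker genes left the count at 42, beside 18.5% of all genes for summed rows and 18.9% for the authors' best rows and without markers. In each of the 6 fits that leave out 1 library, 25 of the 42 called genes passed the threshold, and 17 missed it in at least 1.

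**Figure D1:**
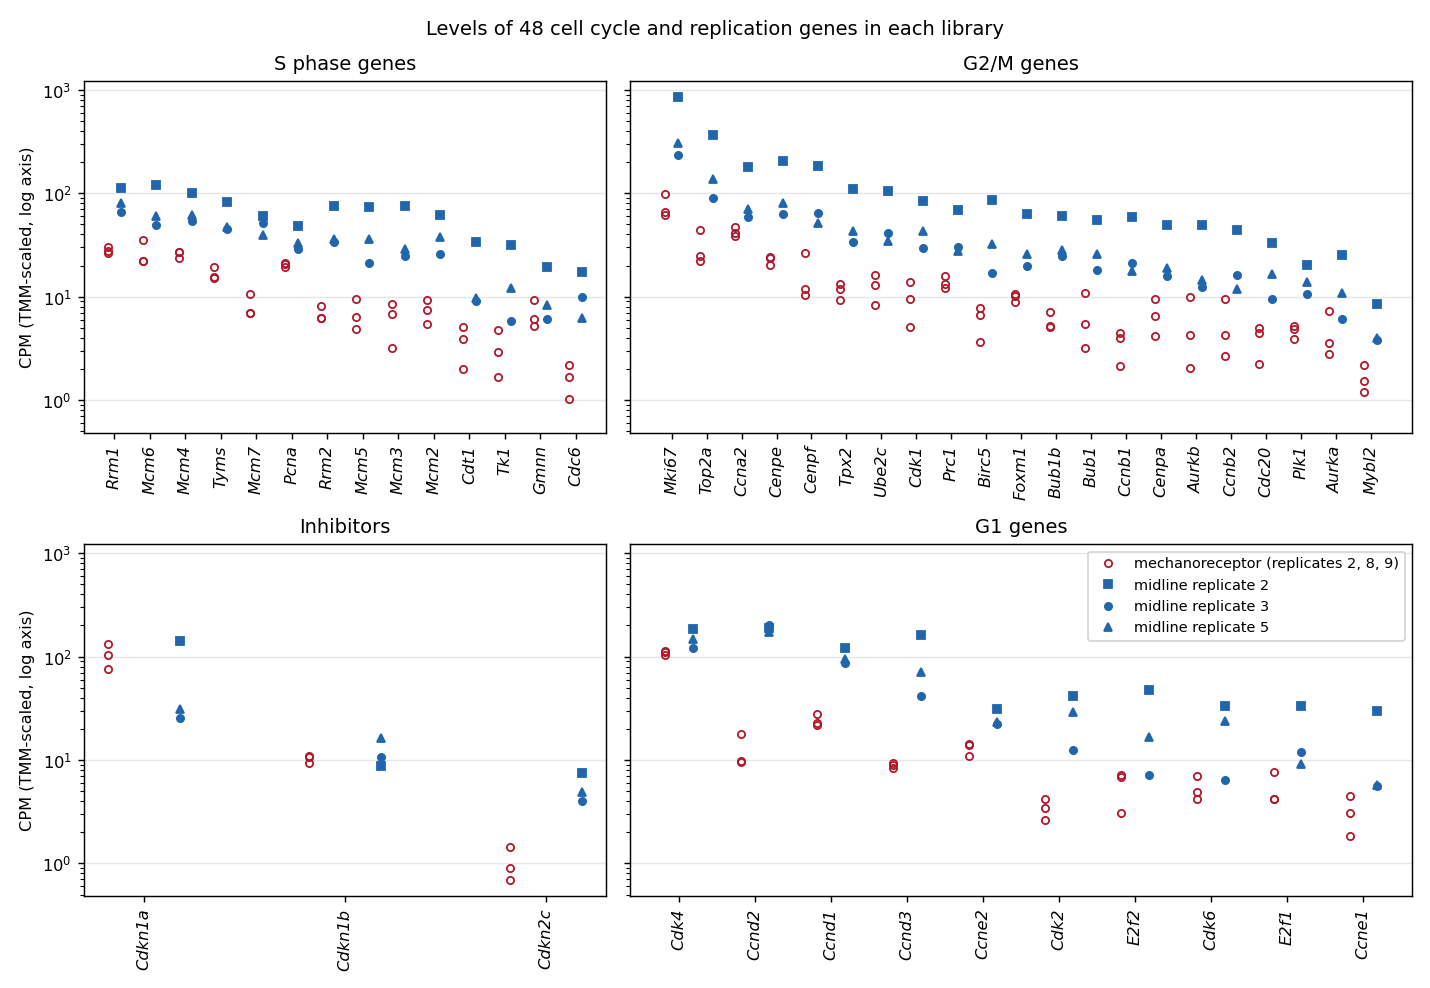
Level of each of the 48 genes in each library, as TMM-scaled CPM on a log axis, in 4 panels by phase and sorted by mean level. Open circles are the 3 mechanoreceptor libraries and filled symbols midline libraries 2 (square), 3 (circle) and 5 (triangle). The midline symbols lie above the mechanoreceptor circles without overlap for 42 genes, and the square of midline library 2 is the highest midline symbol for 46.

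CHR elements with CCAAT boxes are known from promoters of G2 and mitosis genes, and E2F sites from those of G1 and S phase genes. Promoter sequences are therefore shown for 4 G2 and mitosis genes and 2 S phase genes. They were the genes of those groups with the highest mean CPM, among those called higher in the midline, that had a single window in the RefSeq table. Each run is 300 bases, 250 before and 50 after the annotated start, from RefSeq on build GRCm38.p6, written 5′ to 3′ on the gene's strand. Capitals mark E2F motifs (TTTCCCGC, TTTCGCGC, TTTGCCGC or TTTGGCGC), CHR motifs (TTTGAA or TTTAAA) and CCAAT boxes, each searched on both strands, with a motif counted also where it overlapped another. Mki67 lies at chr7:135716330-135716629 on the minus strand, Top2a at chr11:99024140-99024439 on the minus strand and Cenpe at chr3:135212313-135212612 on the plus strand. Cenpf lies at chr1:189688037-189688336 on the minus strand, Rrm1 at chr7:102441445-102441744 on the plus strand and Mcm6 at chr1:128359656-128359955 on the minus strand.
Mki67: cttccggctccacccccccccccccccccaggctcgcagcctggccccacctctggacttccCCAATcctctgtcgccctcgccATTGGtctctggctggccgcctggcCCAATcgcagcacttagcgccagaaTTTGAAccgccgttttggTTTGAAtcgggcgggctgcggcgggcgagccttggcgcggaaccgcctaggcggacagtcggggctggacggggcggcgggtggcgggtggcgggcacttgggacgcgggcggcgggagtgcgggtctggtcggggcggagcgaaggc
Top2a: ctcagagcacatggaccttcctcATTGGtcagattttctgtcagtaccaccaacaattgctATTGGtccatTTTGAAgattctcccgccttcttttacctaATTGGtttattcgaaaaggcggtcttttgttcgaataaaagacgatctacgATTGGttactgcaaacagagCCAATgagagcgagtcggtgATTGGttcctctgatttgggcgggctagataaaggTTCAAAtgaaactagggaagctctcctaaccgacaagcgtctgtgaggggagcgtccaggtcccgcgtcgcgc
Cenpe: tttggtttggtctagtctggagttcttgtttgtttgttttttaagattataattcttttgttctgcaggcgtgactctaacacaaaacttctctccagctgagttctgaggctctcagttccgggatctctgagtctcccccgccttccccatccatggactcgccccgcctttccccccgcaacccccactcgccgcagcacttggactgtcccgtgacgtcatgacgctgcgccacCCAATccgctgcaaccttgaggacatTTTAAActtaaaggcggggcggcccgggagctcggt
Cenpf: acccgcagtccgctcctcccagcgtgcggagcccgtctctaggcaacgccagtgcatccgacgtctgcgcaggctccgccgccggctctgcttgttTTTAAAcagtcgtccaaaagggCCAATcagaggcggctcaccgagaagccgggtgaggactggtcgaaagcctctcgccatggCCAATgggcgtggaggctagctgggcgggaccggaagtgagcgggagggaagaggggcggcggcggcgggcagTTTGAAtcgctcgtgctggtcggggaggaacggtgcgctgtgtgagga
Rrm1: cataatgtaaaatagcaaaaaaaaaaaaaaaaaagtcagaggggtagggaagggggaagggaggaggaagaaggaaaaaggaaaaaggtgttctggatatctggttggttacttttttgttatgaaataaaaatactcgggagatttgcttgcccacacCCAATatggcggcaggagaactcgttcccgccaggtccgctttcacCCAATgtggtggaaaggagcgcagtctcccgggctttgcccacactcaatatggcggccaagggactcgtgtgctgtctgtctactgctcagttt
Mcm6: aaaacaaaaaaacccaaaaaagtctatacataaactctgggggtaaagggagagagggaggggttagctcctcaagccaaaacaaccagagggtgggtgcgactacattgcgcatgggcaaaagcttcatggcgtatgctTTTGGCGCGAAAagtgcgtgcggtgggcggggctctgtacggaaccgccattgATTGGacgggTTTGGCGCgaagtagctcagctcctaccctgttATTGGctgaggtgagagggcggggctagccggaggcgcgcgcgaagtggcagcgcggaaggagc
In the Mki67 window, 2 CHR motifs begin at -116 and -98 from the start, with 3 CCAAT boxes upstream of them at -188, -166 and -141. The Top2a window holds 6 CCAAT boxes and 2 CHR motifs, the nearer of which begins at -23. Cenpe had 1 CHR motif, at 15 bases past the start, and 1 CCAAT box at -12. Cenpf had a pair of each. Mcm6, a subunit of the replicative helicase, had no CHR match and 3 E2F matches, of which the pair at -110 and -106 overlaps, and 2 CCAAT boxes. Rrm1, the large subunit of ribonucleotide reductase, had 2 CCAAT boxes and neither an E2F nor a CHR match in this window, which says only that these letters are not there.

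Windows were present in the RefSeq table for 39 of the 48 genes (45 windows, since some genes have several starts). A CHR motif was found in 88.9% of the 18 windows of G2 and mitosis genes, in 30.8% of the 13 windows of S phase genes and in 22.2% of the 9 windows of G1 genes. It was found in 19.7% of the 13628 windows of genes tested. A CCAAT box and a CHR motif together were in 83.3% of the G2 and mitosis windows and in 7.65% of those of genes tested. The E2F motif showed another order: 46.2% of S phase windows, 22.2% of G1 windows, 5.56% of G2 and mitosis windows and 3.52% of windows of genes tested. In all 32851 windows of the table the shares were 27.6% for CHR, 37.4% for CCAAT and 2.26% for E2F. The GC box (GGGCGG) was in 76.9% to 88.9% of the windows of the G1, S and mitotic groups and in 59.3% of those of genes tested. These shares describe letters in the genome, and no test was made of them.

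**Figure D2:**
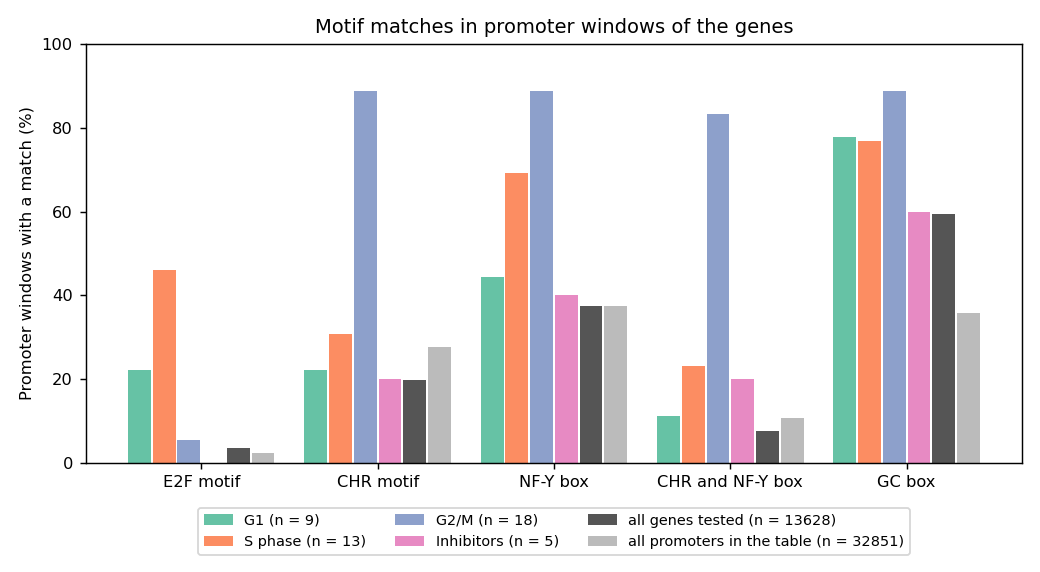
Share of 300-base promoter windows with at least 1 match to each motif (bars, from 0 to 100%), for the 4 groups of cell cycle genes, for all genes tested and for the whole RefSeq table. The NF-Y box is the CCAAT motif. G2 and mitosis windows reach 88.9% for CHR, and S phase windows reach 46.2% for E2F.

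Among G1 genes, 8 of 10 were called higher in the midline and 0 higher in mechanoreceptors, with a median log2 fold change of -2.05. The D-type cyclins, which couple growth signals to CDK4 and CDK6, were all called. Ccnd2 had 17.9, 9.86 and 9.58 CPM in the mechanoreceptor libraries, against 191, 201 and 173 CPM in the midline libraries. The log2 fold change of -3.91 (SE 0.30, adjusted p = 0.00024) was the most negative of all 48, and library 2 was not the highest midline library for it. Ccnd1 had 28.1, 22 and 23 CPM in the mechanoreceptor libraries, against 122, 86.8 and 95.2 CPM in the midline libraries. The log2 fold change was -2.06 (SE 0.22, adjusted p = 0.000733), and both cyclins differed by about as much without midline library 2, at -3.88 for Ccnd2 and -1.87 for Ccnd1. Ccnd3 had 8.88, 9.27 and 8.30 CPM in the mechanoreceptor libraries, against 160.1, 41.7 and 71.5 CPM in the midline libraries. Midline library 2 was far above the others for this cyclin, yet the groups did not overlap and the log2 fold change was -3.37 (SE 0.48, adjusted p = 0.00189), against -2.66 (SE 0.30, adjusted p = 0.00046) without it. Ccnd1 gave 1.57, 2.23 and 2.40 counts per count of Ccnd2 in the mechanoreceptor libraries, against 0.640, 0.432 and 0.551 in the midline libraries, a ratio not corrected for length. So Ccnd1 supplied more reads than Ccnd2 in each mechanoreceptor library and fewer in each midline library.

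Cdk4, the kinase that D-type cyclins activate, did not pass the test of the main fit. It was called under upper-quartile scaling, with the stricter filter and with limma on the deposited log2 values. It had 112, 110.0 and 103 CPM in the mechanoreceptor libraries, against 183, 120.5 and 148 CPM in the midline libraries. Every midline library lay above every mechanoreceptor library, and the log2 fold change was -0.48 (SE 0.20, adjusted p = 0.0969). Without midline library 3 the adjusted p was 0.038, and in the other fits that leave out a library it was 0.168 to 0.278. Its related kinase Cdk6 averaged 5.37 ± 1.48 CPM in mechanoreceptors and 21.3 ± 13.7 CPM in the midline (SD, n = 3 each), and the groups overlapped. Cdk2, the partner of cyclins E and A, averaged 3.42 ± 0.753 CPM in mechanoreceptors and 27.7 ± 14.51 CPM in the midline, a log2 fold change of -3.02 (SE 0.49, adjusted p = 0.00303). Of the cyclin E genes, Ccne2 had a log2 fold change of -0.97 (SE 0.28, adjusted p = 0.0275) and Ccne1, not called, -2.14 (SE 0.75, adjusted p = 0.0539). Ccne1 had 30 CPM in midline library 2, against 5.58 and 5.68 CPM in midline libraries 3 and 5. E2f1 and E2f2, activators of S phase genes, had log2 fold changes of -1.77 and -2.05, with adjusted p of 0.038 and 0.0446. The calls of Cdk6, Ccne2, E2f1 and E2f2 were lost without midline library 2 (adjusted p 0.0749 to 0.176) and without mechanoreceptor library 2 or 8 or 9, so that 4 of 10 remained called in each of these fits: Ccnd1, Ccnd2, Ccnd3 and Cdk2. The median of the 10 without midline library 2 was -1.26. The calls of Cdk6, Ccne2 and E2f2 were also lost without midline library 5. Ccne1 was called without midline library 3 or 5, under upper-quartile scaling and with the stricter filter.

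In S phase, 13 of 14 genes were called higher in the midline and 0 higher in mechanoreceptors, with a median log2 fold change of -2.33, and 12 of them differed by at least 2-fold. All 6 MCM subunits, which form the helicase that unwinds origins, were called. Mcm6 had 22, 22.3 and 35.2 CPM in the mechanoreceptor libraries, against 119, 49.1 and 59.8 CPM in the midline libraries. The groups did not overlap, and the log2 fold change was -1.52 (SE 0.37, adjusted p = 0.0153), with adjusted p of 0.0668 without mechanoreceptor library 2 and 0.0661 without library 8. Mcm4 had 26.9, 23.5 and 27.2 CPM in the mechanoreceptor libraries, against 100.1, 54 and 61.1 CPM in the midline libraries. Its groups did not overlap either, and the log2 fold change was -1.47 (SE 0.27, adjusted p = 0.00512). The other 4 subunits, Mcm2, Mcm3, Mcm5 and Mcm7, had mean levels of 6.15 to 8.21 CPM in mechanoreceptors and 41.9 to 50.4 CPM in the midline. Their log2 fold changes were -2.81 to -2.51, past those of Mcm4 and Mcm6, and all 4 passed whichever library was left out. Of the S phase genes Mcm7 varied least between midline libraries, with a highest over lowest level of 1.52.

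Loading of the helicase needs CDC6 and CDT1, and geminin (Gmnn) blocks CDT1 once replication has begun. Cdc6 averaged 1.63 ± 0.586 CPM in mechanoreceptors and 11.2 ± 5.76 CPM in the midline (SD, n = 3 each), with a log2 fold change of -2.77 (SE 0.55, adjusted p = 0.00688). Cdt1 averaged 3.68 ± 1.56 CPM in mechanoreceptors and 17.5 ± 13.9 CPM in the midline, with -2.25 (SE 0.63, adjusted p = 0.0243). Cdc6 was called whichever library was left out, whereas Cdt1 was not called without mechanoreceptor library 2, 8 or 9 or midline library 2 (adjusted p 0.0518 to 0.0865). Gmnn was the S phase gene that was not called, at -0.72 (SE 0.51, adjusted p = 0.298), and its groups overlapped. Pcna, the sliding clamp of the DNA polymerases, had 21.2, 20.9 and 19.5 CPM in the mechanoreceptor libraries, against 48, 29 and 32.8 CPM in the midline libraries. The groups did not overlap, but the difference was the smallest of the called S phase genes, at -0.83 (SE 0.26, adjusted p = 0.0363), and only the fit without midline library 3 kept it under the threshold when a library was left out (adjusted p 0.061 to 0.111 in the other fits).

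Genes of nucleotide supply were all called. Rrm1, the large subunit of ribonucleotide reductase, had 27.6, 26.5 and 30.3 CPM in the mechanoreceptor libraries, against 112, 66.3 and 79.9 CPM in the midline libraries. This was a log2 fold change of -1.62 (SE 0.24, adjusted p = 0.00231). Tyms, which makes thymidylate, had 19.5, 15.2 and 15.6 CPM in the mechanoreceptor libraries, against 82.8, 45.1 and 47.2 CPM in the midline libraries. Neither gene's groups overlapped, and the log2 fold change of Tyms was -1.80 (SE 0.30, adjusted p = 0.00328). Rrm2, the small subunit whose level follows S phase, averaged 6.87 ± 1.14 CPM in mechanoreceptors and 48.4 ± 23.8 CPM in the midline (SD, n = 3 each). Its log2 fold change of -2.81 (SE 0.38, adjusted p = 0.00163) was past that of Rrm1. Tk1, the cytosolic thymidine kinase, had a log2 fold change of -2.41 (SE 0.68, adjusted p = 0.0257), and its call was lost without mechanoreceptor library 8 or 9. Cdt1, Pcna and Tk1 were not called without midline library 2 (adjusted p 0.0865, 0.111 and 0.0899), where 10 of 14 S phase genes were and the median was -1.47. The count was 10, 9 and 10 without mechanoreceptor library 2, 8 and 9.

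Of the 21 G2 and mitosis genes, 20 were called higher in the midline and 0 higher in mechanoreceptors, all 20 by at least 2-fold, with a median log2 fold change of -2.33. Mki67, a chromosome surface protein used as a marker of cycling cells, had 97.7, 61.1 and 65.8 CPM in the mechanoreceptor libraries, against 853, 234 and 309 CPM in the midline libraries. Midline library 2 was far above the other midline libraries, each of which still exceeded every mechanoreceptor library. The log2 fold change was -2.64 (SE 0.50, adjusted p = 0.00551), and -1.83 (SE 0.26, adjusted p = 0.00126) without midline library 2. Top2a, which untangles sister chromatids, had 43.8, 22 and 24.6 CPM in the mechanoreceptor libraries, against 364, 89.7 and 139 CPM in the midline libraries. The log2 fold change was -2.71 (SE 0.54, adjusted p = 0.00679), against -1.90 (SE 0.33, adjusted p = 0.00351) without midline library 2, so the same library carried the top of the range. Cenpe, a motor of the kinetochore, had 23.9, 20.3 and 24.3 CPM in the mechanoreceptor libraries, against 206, 62.7 and 80.0 CPM in the midline libraries. Here the mechanoreceptor libraries were close to each other, and the log2 fold change was -2.35 (SE 0.44, adjusted p = 0.00539), or -1.62 (SE 0.23, adjusted p = 0.00132) without midline library 2.

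Ccna2, cyclin A2, acts in S phase and in entry into mitosis. It had 47.3, 38.7 and 40.9 CPM in the mechanoreceptor libraries, against 178, 58.4 and 71 CPM in the midline libraries. Midline libraries 3 and 5 were only a little above the mechanoreceptor libraries, and the log2 fold change was -1.28 (SE 0.41, adjusted p = 0.0388). It was -0.59 (SE 0.22, adjusted p = 0.067) without midline library 2, and the call was also lost without any 1 of the mechanoreceptor libraries (adjusted p up to 0.122). The B-type cyclins and Cdk1, which drive entry into mitosis, had log2 fold changes of -3.21 for Ccnb1, -2.12 for Ccnb2 and -2.47 for Cdk1, with adjusted p of 0.00411, 0.0319 and 0.00671. The call of Ccnb2 was lost without mechanoreceptor library 2 or 9 or midline library 2. Ccnb1 had the largest difference of the 21. It averaged 3.53 ± 1.24 CPM in mechanoreceptors and 32.8 ± 23.2 CPM in the midline (SD, n = 3 each). Cyclin A2 thus stood at the other end of the range from cyclin B1, with the smallest log2 fold change of the 21 genes.

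Transcription factors of late genes were lower in mechanoreceptors as well. Foxm1 had 10.3, 8.91 and 10.6 CPM in the mechanoreceptor libraries, against 62.4, 19.6 and 26 CPM in the midline libraries. The groups did not overlap, and the log2 fold change was -1.86 (SE 0.44, adjusted p = 0.0135), or -1.18 (SE 0.32, adjusted p = 0.0219) without midline library 2. Without mechanoreceptor library 2 or 8 its adjusted p was 0.0514 and 0.056. Mybl2, the gene of B-MYB, was at a low level, with 1.64 ± 0.510 CPM in mechanoreceptors and 5.41 ± 2.68 CPM in the midline (SD, n = 3 each). Its log2 fold change was -1.72 (SE 0.56, adjusted p = 0.0428), and it was called in none of the 6 fits that leave out a library (adjusted p 0.0534 to 0.21).

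At the kinetochore and spindle checkpoint, Bub1, Bub1b, Cenpa, Cenpf, Aurkb and Birc5 were each called. Bub1 and Bub1b are checkpoint kinases, Cenpa is the histone variant of centromeres, and Aurkb and Birc5 belong to the chromosomal passenger complex. Their mean levels were 5.41 to 16.3 CPM in mechanoreceptors and 25.3 to 99.3 CPM in the midline, with log2 fold changes of -2.90 to -2.07. Birc5 had the largest of these differences and Cenpa the smallest. Aurkb was spread over 9.92, 4.28 and 2.04 CPM in the mechanoreceptor libraries, against 49.1, 12.5 and 14.4 CPM in the midline libraries, with the lowest midline value above the highest mechanoreceptor value. The call of Aurkb was lost without mechanoreceptor library 8 or 9 or midline library 2 (adjusted p 0.113 to 0.139). Bub1 lost its call without mechanoreceptor library 9, and Cenpa without mechanoreceptor library 2 or 8. Aurka, the kinase of spindle poles, was the gene of this phase that was not called, at -1.64 (SE 0.62, adjusted p = 0.0676), and its groups overlapped. Without midline library 3 its adjusted p was 0.0254, and it was called with DESeq2 and under upper-quartile scaling. The activator of this kinase, Tpx2, was called at -2.46 (SE 0.46, adjusted p = 0.00534).

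For the exit from mitosis, Cdc20 and Ube2c, which act with the anaphase-promoting complex, had log2 fold changes of -2.34 and -2.27, with adjusted p of 0.0121 and 0.00803. Plk1, a kinase active throughout mitosis, had -1.67 (SE 0.38, adjusted p = 0.011). Prc1, which bundles the microtubules of the central spindle, had 12.1, 13.3 and 15.8 CPM in the mechanoreceptor libraries, against 68.8, 30.1 and 27.5 CPM in the midline libraries. The groups did not overlap, and its log2 fold change was -1.62 (SE 0.39, adjusted p = 0.0139), with adjusted p of 0.0596 and 0.055 without mechanoreceptor library 2 and 8. In the fit without midline library 2, 16 of the 21 genes were called, the median was -1.62, and Ccna2, Ccnb2, Aurkb and Mybl2 missed the threshold. The count was 14, 14 and 15 without mechanoreceptor library 2, 8 and 9. Of the 21 genes, 12 were called in each of the 6 fits: Mki67, Top2a, Ccnb1, Cdk1, Cdc20, Bub1b, Plk1, Birc5, Cenpe, Cenpf, Tpx2 and Ube2c.

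**Figure D3:**
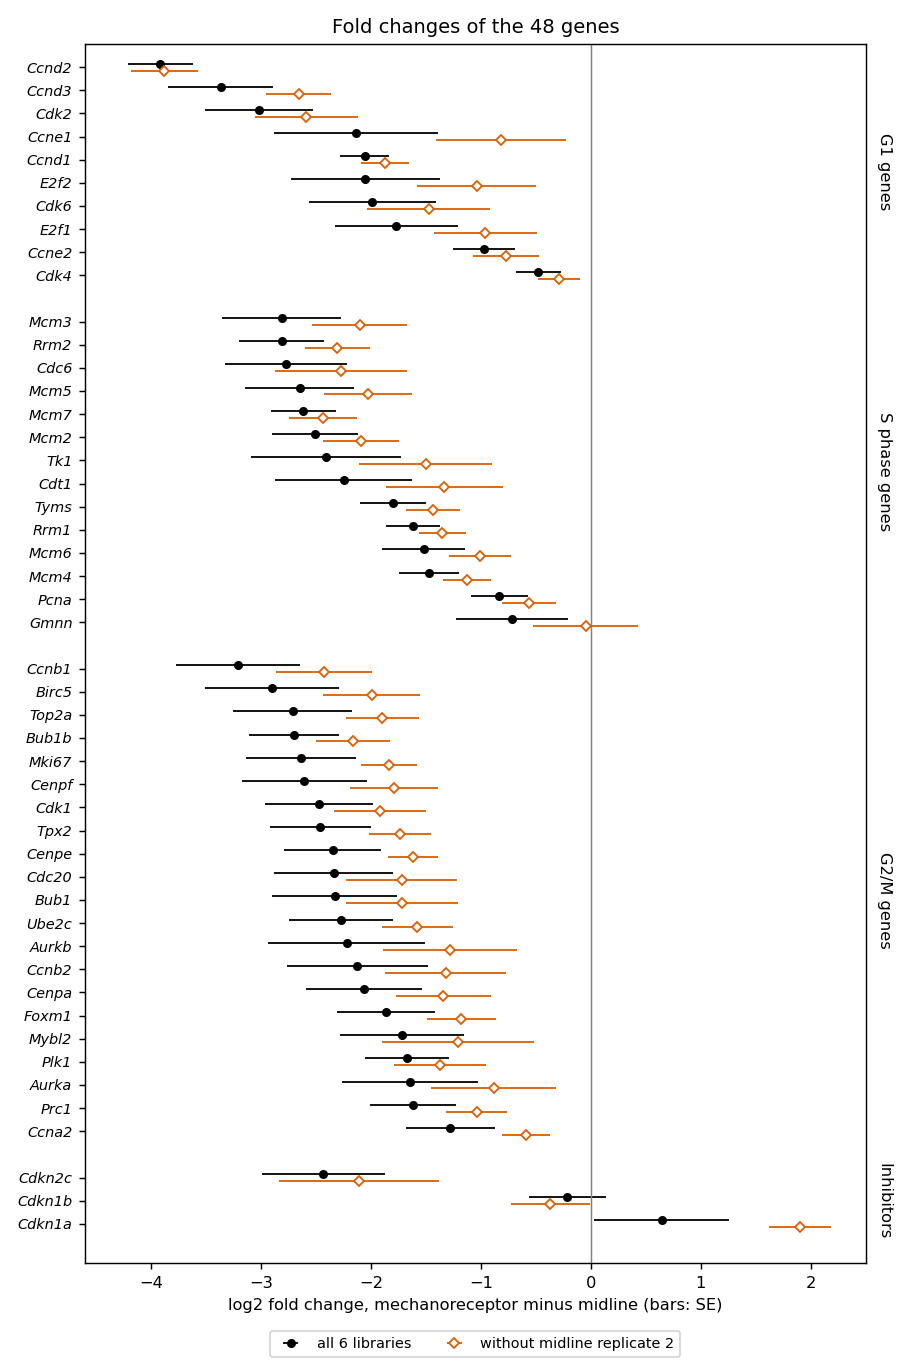
Log2 fold change of each of the 48 genes, mechanoreceptor minus midline, with its SE as a bar, grouped by phase. Black circles are the fit of all 6 libraries and open diamonds the fit without midline library 2. Every black circle but that of Cdkn1a lies left of 0, and 46 of 48 diamonds are nearer to 0 than the circle in size.

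The kinase inhibitors gave values of both signs. Cdkn1a, the gene of p21, had 103, 131 and 75.3 CPM in the mechanoreceptor libraries, against 142, 25.2 and 30.9 CPM in the midline libraries. The mechanoreceptor libraries all lay above midline libraries 3 and 5 and below midline library 2, so the groups overlapped, and the log2 fold change was 0.65 (SE 0.61, adjusted p = 0.433). It was 1.90 (SE 0.28, adjusted p = 0.00166), higher in mechanoreceptors, without midline library 2. Without any 1 of the other 5 libraries the adjusted p was 0.4 to 0.73. Cdkn1b, the gene of p27, had 10.8, 10.6 and 9.45 CPM in the mechanoreceptor libraries, against 8.82, 10.7 and 16.3 CPM in the midline libraries. The groups overlapped, and the log2 fold change of -0.21 (SE 0.35, adjusted p = 0.654) changed sign with the library left out: it was 0.088 without midline library 5. Cdkn2c, an INK4 inhibitor of CDK4 and CDK6, had 0.692, 1.43 and 0.894 CPM in the mechanoreceptor libraries, against 7.54, 4.02 and 4.89 CPM in the midline libraries. It was the inhibitor that was called, higher in the midline, at -2.43 (SE 0.56, adjusted p = 0.0119), from 6 to 12 counts in each mechanoreceptor library, and without midline library 2 it had -2.11 (SE 0.73, adjusted p = 0.0554). No test of the difference between inhibitors and the other groups was made.

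Levels can be compared between genes only per length. Per kilobase of the transcript counted, Cdkn1a was the highest of the 48 genes in mechanoreceptors, with a mean of 54 ± 14.6 in mechanoreceptors and 34.5 ± 34.3 in the midline (CPM per kb, SD, n = 3 each). Cdk4 was next in mechanoreceptors and first in the midline, with 52.7 ± 2.43 in mechanoreceptors and 73.3 ± 15.3 in the midline CPM per kb. The spread of Cdkn1a covers that of Cdk4 in mechanoreceptors, so their order there is not resolved. Ccna2 followed, with 14.3 ± 1.50 in mechanoreceptors and 34.6 ± 22.1 in the midline. Pcna had 13.5 ± 0.590 in mechanoreceptors and 24.1 ± 6.60 in the midline. In the midline Ube2c, Mki67, Ccnd3 and Top2a stood between Cdk4 and Ccna2, and the SDs of these neighbours overlap. Ube2c had 12.9 ± 4.09 in mechanoreceptors and 62.5 ± 40.4 in the midline CPM per kb. Mki67 had 7.44 ± 1.98 in mechanoreceptors and 46.3 ± 33.6 in the midline. Of the D-type cyclins Ccnd1 was highest in mechanoreceptors and Ccnd3 in the midline, where the SDs of all 3 overlap. Ccnd1 had 6.52 ± 0.884 in mechanoreceptors and 27.1 ± 4.93 in the midline CPM per kb. Ccnd2 had 1.96 ± 0.744 in mechanoreceptors and 29.7 ± 2.25 in the midline CPM per kb. Ccnd3 had 4.17 ± 0.230 in mechanoreceptors and 43.1 ± 29.1 in the midline CPM per kb.

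Summed over the 48 genes, levels were 859, 732 and 721 CPM in the mechanoreceptor libraries, against 4649, 1806 and 2163 CPM in the midline libraries. The sum of each of the G1, S and mitotic groups was higher in every midline library than in any mechanoreceptor library. For G2 and mitosis genes it was 363, 257 and 272 CPM in the mechanoreceptor libraries, against 2706, 819 and 1019.8 CPM in the midline libraries. For S phase genes it was 174, 150.3 and 182 CPM in the mechanoreceptor libraries, against 912, 431 and 496 CPM in the midline libraries. The inhibitors summed to 115, 143 and 85.7 CPM in the mechanoreceptor libraries, against 158, 39.9 and 52.1 CPM in the midline libraries, and here the groups overlapped. Counts of S phase genes per count of G2 and mitosis genes were 0.479, 0.584 and 0.667 in the mechanoreceptor libraries, against 0.337, 0.527 and 0.486 in the midline libraries. These ratios overlapped between groups, and midline library 2 had the lowest.

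Variation among the midline libraries was itself large. Midline library 2 was the highest midline library for 46 of the 48 genes, the others being Ccnd2 (library 3) and Cdkn1b (library 5). Its level over the mean of libraries 3 and 5 had a median of 2.86 over the G2 and mitosis genes, 2.17 over the S phase genes and 2.09 over the G1 genes. The same library had the highest level of all 10 skeletal muscle markers and of 9 of 10 fibroblast markers, at the sums given above, and their part in the levels of cell cycle genes was not tested. In midline libraries 3 and 5, where radial glia markers summed to 5687 and 7994 CPM, against 2946 CPM in library 2, the 48 genes still summed to more than in any mechanoreceptor library. Among the mechanoreceptor libraries, library 2 was the highest for 26 of the 48 genes. It also had the highest level of 10 of 12 endothelial and pericyte markers, whose sum was 221, 92.9 and 138 CPM in the mechanoreceptor libraries, against 794, 745 and 743 CPM in the midline libraries. The glial marker Sox10 had 13.4, 26 and 16.5 CPM in the mechanoreceptor libraries, against 14.1, 11.2 and 6.16 CPM in the midline libraries, and of the 12 satellite glia and Schwann cell markers 6 were called toward mechanoreceptors and 1 toward the midline, beside 18.8% and 18.9% of all genes tested. The 6 became 2 without mechanoreceptor library 8 and 4 without mechanoreceptor library 2 or 9 or midline library 3 or 5. Without midline library 2 there were 7. In these fits, in that order, 12.1%, 13.4%, 13.6%, 19.8%, 14.1% and 17.8% of all genes were called toward mechanoreceptors. The count was 4 under upper-quartile scaling and 9 with limma on the deposited log2 values, beside 14% and 17.5% of all genes. The sums of this list overlapped between groups. They were 2113, 2601 and 2868 CPM in the mechanoreceptor libraries, against 1019, 3015 and 3595 CPM in the midline libraries. The 2 without mechanoreceptor library 8 were Gap43 and Cnp, and the 1 toward the midline was Fabp7, which also stands in the radial glia list. Whether the markers of this list were restricted to glia was not tested. Oligodendrocyte precursor markers, of which 5 of 6 were called higher in the midline, summed to 28.6, 30.3 and 25.9 CPM in the mechanoreceptor libraries, against 294, 155 and 119.8 CPM in the midline libraries. Their sum was highest in midline library 2. By marker, 3 of the 6 were highest in midline library 2 and 3 in midline library 3. Olig1 was at 0 counts in each mechanoreceptor library, while Sox10 stands in both glial lists. Dorsal horn neuron markers, of which 7 of 9 tested were called higher in the midline and 2 higher in mechanoreceptors, summed to 304, 335 and 206 CPM in the mechanoreceptor libraries, against 176, 1169.8 and 358 CPM in the midline libraries. These sums overlapped between groups, with midline library 3 the highest. The 9 microglia and macrophage markers summed to 252, 79.5 and 278 CPM in the mechanoreceptor libraries, against 148, 259 and 339 CPM in the midline libraries. The share of cell cycle reads that came from such cells was not tested.

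**Figure D4:**
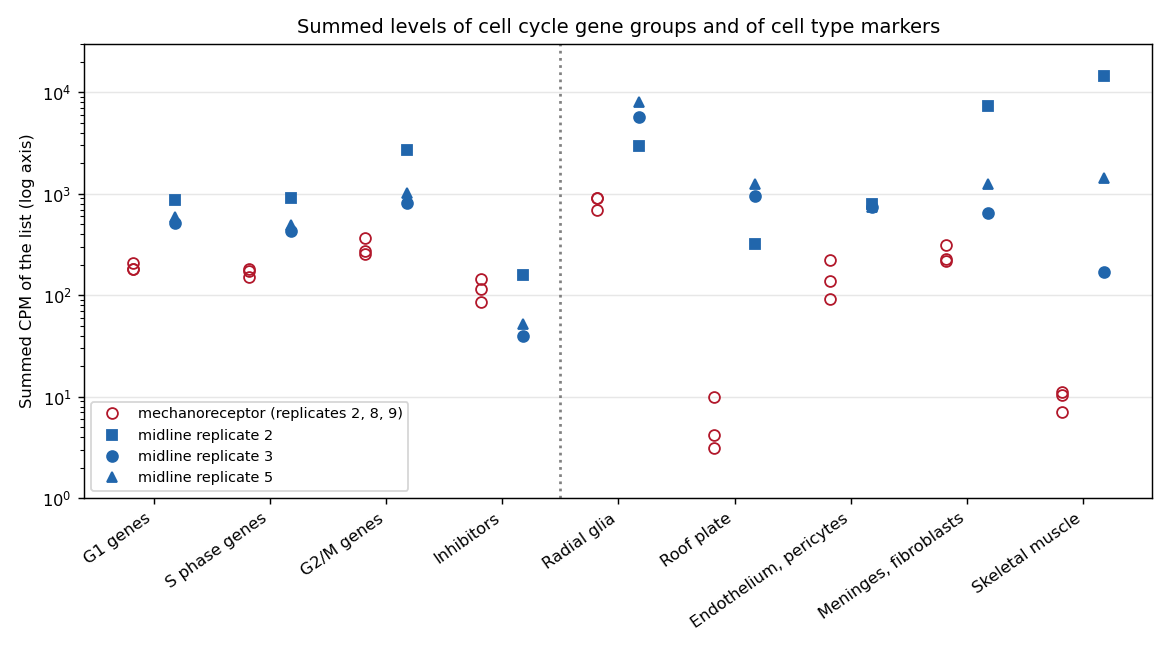
Summed TMM-scaled CPM per library, on a log axis, of the 4 groups of cell cycle genes (left of the dotted line) and of 5 lists of cell type markers (right). Open circles are mechanoreceptor libraries, and filled symbols midline libraries 2 (square), 3 (circle) and 5 (triangle). Library 2 is the highest midline library for each cell cycle group and for muscle and fibroblast markers, and the lowest for radial glia and roof plate markers.

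Other genes of the same machinery were counted by list. Of 42 genes of origin recognition and replication forks, 21 were called higher in the midline and 0 higher in mechanoreceptors, with a median log2 fold change of -1.21. The 21 were 50% of the list, beside 18.9% of all genes called higher in the midline and 18.8% higher in mechanoreceptors. Rfc1, a subunit of the clamp loader, had 40.8, 36.2 and 50.2 CPM in the mechanoreceptor libraries, against 111, 52.6 and 79.1 CPM in the midline libraries. Lig1, the ligase that joins Okazaki fragments, had 29.2, 21.9 and 30.0 CPM in the mechanoreceptor libraries, against 101, 43.3 and 48.3 CPM in the midline libraries. Pola1, the catalytic subunit of the primase polymerase, had 15.8, 10.3 and 12.5 CPM in the mechanoreceptor libraries, against 71.1, 31 and 35.4 CPM in the midline libraries. All 3 were called, without overlap between groups, with log2 fold changes of -0.93, -1.25 and -1.83 and adjusted p of 0.0371, 0.0247 and 0.00725. The origin recognition subunits Orc3 and Orc4 were not called. Orc3 had 195, 185 and 167 CPM in the mechanoreceptor libraries, against 229, 284 and 238 CPM in the midline libraries. Orc4 had a log2 fold change of -0.066 (SE 0.27, adjusted p = 0.864). The count was 10 without midline library 2, where the calls of Rfc1 and Lig1 were lost, as they were without each mechanoreceptor library, with counts of 11, 13 and 11 without library 2, 8 and 9. These were 23.8%, 26.2%, 31% and 26.2% of the list, in fits where 15.2%, 12.2%, 11.9% and 12.5% of all genes were called higher in the midline. The median without midline library 2 was -0.74. Rfc1 was also not called without midline library 5.

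Among 44 further genes of kinetochores, the spindle checkpoint and cytokinesis, 29 were called higher in the midline and 0 higher in mechanoreceptors, with a median of -1.85. The 29 were 65.9% of the list, beside 18.9% of all genes called higher in the midline and 18.8% higher in mechanoreceptors. Aspm, a spindle pole protein needed for neural progenitor divisions, had 12.6, 10.6 and 7.41 CPM in the mechanoreceptor libraries, against 131, 38.1 and 40.1 CPM in the midline libraries. The log2 fold change of Aspm was -2.77 (SE 0.52, adjusted p = 0.00554), and -1.91 (adjusted p = 0.00205) without midline library 2. Anln, the scaffold of the contractile ring, and Racgap1, of the centralspindlin complex, had log2 fold changes of -2.27 and -1.47, with adjusted p of 0.0123 and 0.0212. These were -1.32 (adjusted p = 0.00761) and -1.01 (adjusted p = 0.0521) without midline library 2, and both calls were lost without mechanoreceptor library 2 or 8. Bub3 and the CDK subunit gene Cks1b, which the list also holds, were not called, and their groups overlapped. Their log2 fold changes were -0.32 (SE 0.27, adjusted p = 0.37) and -0.36 (SE 0.36, adjusted p = 0.457). The count was 17 without midline library 2, and 18, 15 and 18 without mechanoreceptor library 2, 8 and 9. These were 38.6%, 40.9%, 34.1% and 40.9% of the list, in fits where 15.2%, 12.2%, 11.9% and 12.5% of all genes were called higher in the midline. The median without midline library 2 was -1.25.

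Condensin and cohesin genes, whose rings shape and hold chromosomes, gave 11 of 14 called higher in the midline and 0 higher in mechanoreceptors, with a median of -1.15. The 11 were 78.6% of the list, beside 18.9% of all genes called higher in the midline and 18.8% higher in mechanoreceptors. Smc4, a condensin subunit, had 47.7, 42.1 and 46.4 CPM in the mechanoreceptor libraries, against 236, 116 and 126 CPM in the midline libraries. The cohesin genes Rad21 and Stag1 had smaller differences, with log2 fold changes of -0.65 and -1.12, against -1.81 for Smc4. Their adjusted p were 0.0229, 0.00432 and 0.00313, and Rad21 was not called when any library but midline library 3 was left out. The cohesin core subunits Smc3 and Smc1a, which also act in cells that do not divide, were not called. Smc3 had 218, 189 and 225 CPM in the mechanoreceptor libraries, against 303, 269.7 and 271 CPM in the midline libraries. Smc1a had a log2 fold change of -0.24 (SE 0.17, adjusted p = 0.304). The count was 7 without midline library 2 and 8, 8 and 7 without mechanoreceptor library 2, 8 and 9. These were 50%, 57.1%, 57.1% and 50% of the list, in fits where 15.2%, 12.2%, 11.9% and 12.5% of all genes were called higher in the midline. The median without midline library 2 was -0.996.

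The list of the RB and E2F family, which also holds LIN and MYB genes, gave calls in both directions. Of 17 genes, 8 were called higher in the midline and 1, E2f3, higher in mechanoreceptors. These were 47.1% and 5.88% of the list, beside 18.9% and 18.8% of all genes tested. E2f3, an activator E2F, had 65.4, 76.6 and 71 CPM in the mechanoreceptor libraries, against 49.1, 23.6 and 23.4 CPM in the midline libraries. The lowest mechanoreceptor value lay above the highest midline value, and the log2 fold change was 1.15 (SE 0.31, adjusted p = 0.0232). The call was lost without any 1 of the mechanoreceptor libraries, without midline library 5 and under upper-quartile scaling. Rb1, the gene of the RB pocket protein, had 122, 105 and 79 CPM in the mechanoreceptor libraries, against 163, 151 and 159.8 CPM in the midline libraries, with a log2 fold change of -0.64 (SE 0.20, adjusted p = 0.0403) that lost its call whichever library was left out. Tfdp2, a dimer partner of E2F, and E2f5, a repressor E2F, were higher in the midline, with log2 fold changes of -1.25 and -1.35 and adjusted p of 0.00654 and 0.0256. E2f5 lost its call without each mechanoreceptor library and without midline library 5. Rbl2 and E2f6 were not called, at -0.60 (SE 0.22, adjusted p = 0.058) and 0.17 (SE 0.26, adjusted p = 0.627), and among the fits that leave out a library Rbl2 was called in the one without midline library 2. In that fit 15.2% of all genes were called higher in the midline and 17.8% higher in mechanoreceptors. There the counts of the list, in the same order, were 7 and 1. The counts were 4 and 0 without mechanoreceptor library 2, 3 and 0 without library 8, and 4 and 0 without library 9. In those fits 12.2%, 11.9% and 12.5% of all genes were called higher in the midline.

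Of 15 further inhibitors and antiproliferative genes, 13 were tested, 4 were called higher in the midline (Btg1, Tob1, Ccng2 and Gas1) and 0 higher in mechanoreceptors. The 4 were 30.8% of those tested, beside 18.9% of all genes called higher in the midline and 18.8% higher in mechanoreceptors. The INK4 genes Cdkn2a and Cdkn2d did not pass the filter on low counts, with Cdkn2a at 0 counts in each mechanoreceptor library and Cdkn2d at 0 in each midline library. Btg1 and Tob1 belong to a family of antiproliferative proteins, and their log2 fold changes were -0.91 and -1.45, with adjusted p of 0.0311 and 0.0163. The calls of Btg1, Tob1 and Ccng2 were lost without mechanoreceptor library 8, that of Btg1 also without mechanoreceptor or midline library 2, those of Tob1 and Ccng2 also without mechanoreceptor library 9, and that of Ccng2 also without midline library 3. Gas1, a gene first known from growth-arrested cells, had 2.77, 1.66 and 2.04 CPM in the mechanoreceptor libraries, against 86, 14.9 and 35.2 CPM in the midline libraries. Cdkn1c, the gene of p57, was not called. It had 93.2, 103 and 124 CPM in the mechanoreceptor libraries, against 1350.0, 138 and 176 CPM in the midline libraries. Midline library 2 was far above the other 5 libraries, and the log2 fold change was -2.38 (SE 0.82, adjusted p = 0.0505). It was -0.53 (adjusted p = 0.0931) without midline library 2, and was called without midline library 3 or 5. Ccng1, a p53 target, was not called either, at 0.38 (SE 0.21, adjusted p = 0.176), but was without midline library 2, at 0.60 (adjusted p = 0.0366). That fit gave 3 genes of the list higher in the midline, with 2 in the other direction, beside 15.2% and 17.8% of all genes. Leaving out mechanoreceptor library 2, 8 and 9 gave 3, 1 and 2 toward the midline, where 12.2%, 11.9% and 12.5% of all genes were called that way, so the share of the list was below that of all genes in the fit without library 8.

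In the authors' deposited table, whose fold change runs as midline over mechanoreceptor, 40 of the 48 genes had a false discovery rate under 0.05 with a change of at least 2-fold toward the midline and 0 toward mechanoreceptors. The authors' deposited table of pathways among genes higher in the midline listed Cell cycle with 30 genes and a fold enrichment of 2.23 (Benjamini p = 0.000518) and p53 signaling pathway with 18 genes and 2.48 (Benjamini p = 0.00588). DNA replication stood in the authors' deposited table with 9 genes and a fold enrichment of 2.45 (Benjamini p = 0.150). The authors' deposited table gives a background of 5738 genes, of which 128, 69 and 35 belong to these 3 pathways, and 603 genes searched.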

How the data were processed

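RNA was sequenced from 3 mechanoreceptor and 3 midline libraries. The authors deposited whole-number read counts per RefSeq transcript row, and in the same table log2 expression values, a log2 fold change and a false discovery rate p-value per row. The mouse build mm9 and edgeR are named in the submitters' processing notes, while the aligner and counter are not given in the sources used here. A second table that the authors also deposited lists pathways, each with its number of genes, the fold enrichment ratio and an adjusted p-value, per the file headers. Reads of exons common to several transcripts can be counted in more than 1 row, and 9 of the 48 genes had more than 1 row. Strand was not stated, so overlapping and antisense genes cannot be told apart. Gene lists without values were not used.

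For each of 22869 symbols the row with the highest summed count was kept. The test on counts used edgeR 4.0.16 in R 4.3.3 (filterByExpr with a minimum count of 10 and a minimum total of 15, TMM scaling, glmQLFit and glmQLFTest, 4 residual degrees of freedom), with Benjamini-Hochberg adjustment over the 15314 genes kept. The SE was taken as the size of the log2 fold change over the square root of F. No pair of libraries in a group agreed within sampling noise (chi-square per degree of freedom of 13.7 or more). Alternatives were counts summed over rows, the row the authors marked as best, DESeq2 1.42.0, upper-quartile scaling, no filter, a stricter filter (1 CPM in 3 libraries and a mean of 50 counts), limma-voom (limma 3.58.1), limma on the deposited log2 values, marker genes left out, and each library left out in turn. The fitting code was tested on simulated counts with changes placed in 200 genes. Log2 fold changes of -2 and 2 were recovered for 62% and 64% of those genes, but -1 and 1 for 8% and 2%. There were 4 false calls. A gene not called can therefore still differ by 2-fold. Floors cover counting error only. Transcript lengths came from the GENCODE M21 transcript matched to the RefSeq accession, for all 48 genes.

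The genes, lists and motifs were chosen with earlier results of these data known. Values in every library are given for the 4 genes of each phase with the highest mean CPM, genes not called with a mean of at least 10 CPM, genes with a mean of at least 20 CPM whose call changed when a library was left out, and the inhibitors. Each pathway list gave, by mean CPM, up to 3 genes called in its commoner direction, 3 called the other way and 2 without a call. The values per library of Gas1, Aurkb and Sox10 were chosen for print after their values were seen, as was the range of Cdk5r1. Coordinates are given on the build of the RefSeq table only for promoters.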

Additional observations from a re-analysis of the deposited data

How the results depend on the processing

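The count of cell cycle genes higher in the midline, 42 with all libraries, was 34 to 45 under the other settings named in the report. Leaving out each library gave 28 to 44. The count higher in mechanoreceptors was 0 under every alternative listed except without midline replicate 2, so the range over libraries left out was 0 to 1. All genes called numbered 5788, and 3755 to 6196 when a library was left out, the lowest without mechanoreceptor replicate 8. Upper-quartile scaling moved the median log2 fold change of all genes from -0.05 to -0.26, and the calls of all genes to 2149 toward mechanoreceptors and 3673 toward the midline, against 2886 and 2902. The G1 count of 8 was 5 with limma-voom and 10 under upper-quartile scaling and with the stricter filter. The G2 and mitosis count of 20 was 21 with DESeq2 and upper-quartile scaling, and 17 with limma on the deposited log2 values. Cdkn1b reversed, to 0.19 with the deposited log2 values and to 0.088 without midline replicate 5 (range -0.37 to 0.088 over libraries left out), and the cause was not tested. Calls lost with the deposited log2 values numbered 9, and calls gained were 1 (Cdk4). No paired analysis was possible because the groups share only replicate number 2. Low counts limit Cdkn2c, Cdc6 and Mybl2, and 3 libraries per group limit every p-value.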

Other observations

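Cyclins and cyclin-dependent kinases with roles outside the division cycle gave calls in both directions. Of 18 such genes, 5 (27.8%) were called toward mechanoreceptors and 1 (5.56%) toward the midline, beside 18.8% and 18.9% of all genes tested, and the median log2 fold change was 0.0021. The counts were 5 and 3 under upper-quartile scaling, beside 14% and 24% of all genes. With limma on the deposited log2 values the counts were 4 and 3, beside 17.5% and 16.2% of all genes. Cdk5 and its activator Cdk5r2 form a kinase of postmitotic neurons. Cdk5r1, the gene of another activator, was called in 0 of the 6 fits that leave out a library, with log2 fold changes of -0.78 to 0.43. Cdk5r2 had 96.8, 138 and 92.5 CPM in the mechanoreceptor libraries, against 9.62, 34.8 and 9.79 CPM in the midline libraries, without overlap, and a log2 fold change of 2.61 (SE 0.51, adjusted p = 0.00652). Cdk5 had 72.8, 79.6 and 82.1 CPM in the mechanoreceptor libraries, against 25.3, 51.1 and 37.4 CPM in the midline libraries, with a log2 fold change of 1.05 (SE 0.27, adjusted p = 0.0181) whose call was lost without mechanoreceptor library 8 or 9. Cdk16, a kinase of the PCTAIRE group, had 258, 342 and 294 CPM in the mechanoreceptor libraries, against 136, 132 and 146 CPM in the midline libraries. Its log2 fold change was 1.11 (SE 0.19, adjusted p = 0.00353). Cdk14, which pairs with cyclin Y, had 0.99 (SE 0.26, adjusted p = 0.0193), and Cdk10 0.86 (SE 0.22, adjusted p = 0.0171), and the calls of both were lost without mechanoreceptor library 2 or 8. Ccny, the gene of cyclin Y itself, was the one called higher in the midline, at -0.60 (SE 0.19, adjusted p = 0.0378), lost when any library but midline library 2 was left out. Ccni and Cdk17 were not called, at 0.60 (SE 0.23, adjusted p = 0.0747) and -0.44 (SE 0.25, adjusted p = 0.196). Ccni was called higher in mechanoreceptors without midline library 3 (adjusted p = 0.0155), and Cdk17 higher in the midline without midline library 2 (adjusted p = 0.043). Without mechanoreceptor library 2, 8 and 9 the counts toward mechanoreceptors were 3, 2 and 4 of 18, in fits where 13.4%, 12.1% and 13.6% of all genes were called that way.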
